A study of Oryza sativa with 6 samples.

Results

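The strigolactone pathway and the regulators of tiller buds were followed in young rice shoots through 9 genes, named by locus. They are D27, D17 and D10 of strigolactone synthesis, D14, D3 and D53 of its perception, and SPL14, TB1 and MOC1, which act in the bud itself. All 9 were read, among 27397 genes in the deposited table of normalized reads, and 8 of them passed the filter on low values and were tested with 24149 genes in all. TB1, with 37 reads in wild type and 23 in pine1 over 3 libraries each, was read but fell under the filter.

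RNA came from 3 samples of wild-type Nipponbare, a japonica rice, and 3 of pine1-1a, a knockout line in the same background. Each sample pooled 8 untreated plants, grown under days of 16 h and taken 20 days after germination as about 1 cm of the shoot base with stem and apex. Both groups share age, tissue and growth conditions and differ in the labels by genotype alone. The mutant is a single line, whose lesion the sources used here do not describe. PINE1 itself (Os12g0617000) had 3569, 3674 and 2943 normalized reads in wild type libraries 1 to 3, against 5199, 5044 and 4173 in pine1 libraries 1 to 3. The libraries labelled pine1 thus held more of its RNA, which does not check a knockout made by a small change in the sequence, so directions below refer to libraries as labelled.

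Libraries held between 27918842 and 36250239 recovered reads. Class I KNOX genes, which mark the shoot meristem, were read in all 6 libraries, as were leaf markers, and 7 of 8 root marker loci were read in at least one. The segment is a mixture of tissues that holds axillary buds, so fewer cells of a type and less RNA per cell cannot be told apart. Nothing in the labels says that the pools came from separate sowings, so every p-value reflects only the spread among these pools, which may be technical. Libraries are numbered by the replicate number in the labels.

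Strigolactones are carotenoid-derived hormones that keep axillary buds, the tillers of rice, from growing out. In the plastid, D27 isomerises the carotenoid precursor and the cleavage enzymes D17 and D10 turn it into carlactone, which P450 enzymes of the MAX1 type oxidise further. The hormone binds the receptor D14, which joins the F-box protein D3 and marks the repressor D53 for degradation. Freed of D53, the transcription factor SPL14 acts in the bud, where TB1 holds outgrowth back, while MOC1 is needed to form the bud in the first place.

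The level of these RNAs was compared between the libraries labelled pine1 and those of wild type, and none of the 8 tested passed by limma. At an adjusted p under 0.05, 0 were higher and 0 were lower in pine1, beside 6.46% of all genes tested (4.02% higher and 2.44% lower). At an unadjusted p under 0.05 there were 3 of the 8, D17, D14 and MOC1, all with higher means in pine1, beside 20.9% of all genes in either direction and 11.2% higher. edgeR's quasi-likelihood test on the recovered reads called 0 of the 8, beside 6.49% of all genes. DESeq2 on the same reads called 2, D17 and D14, beside 8.18% of all genes in either direction and 4.87% higher. The median log2 fold change of the 8 was 0.33, beside -3.6e-05 over all genes tested, and 7 of the 8 estimates were above 0, beside 12074 of all 24149. In 3 of the 9 genes (D27, D17 and MOC1, all 3 of them tested) the genotypes did not overlap, which was so in 26.4% of all genes tested.

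**Figure D1:**
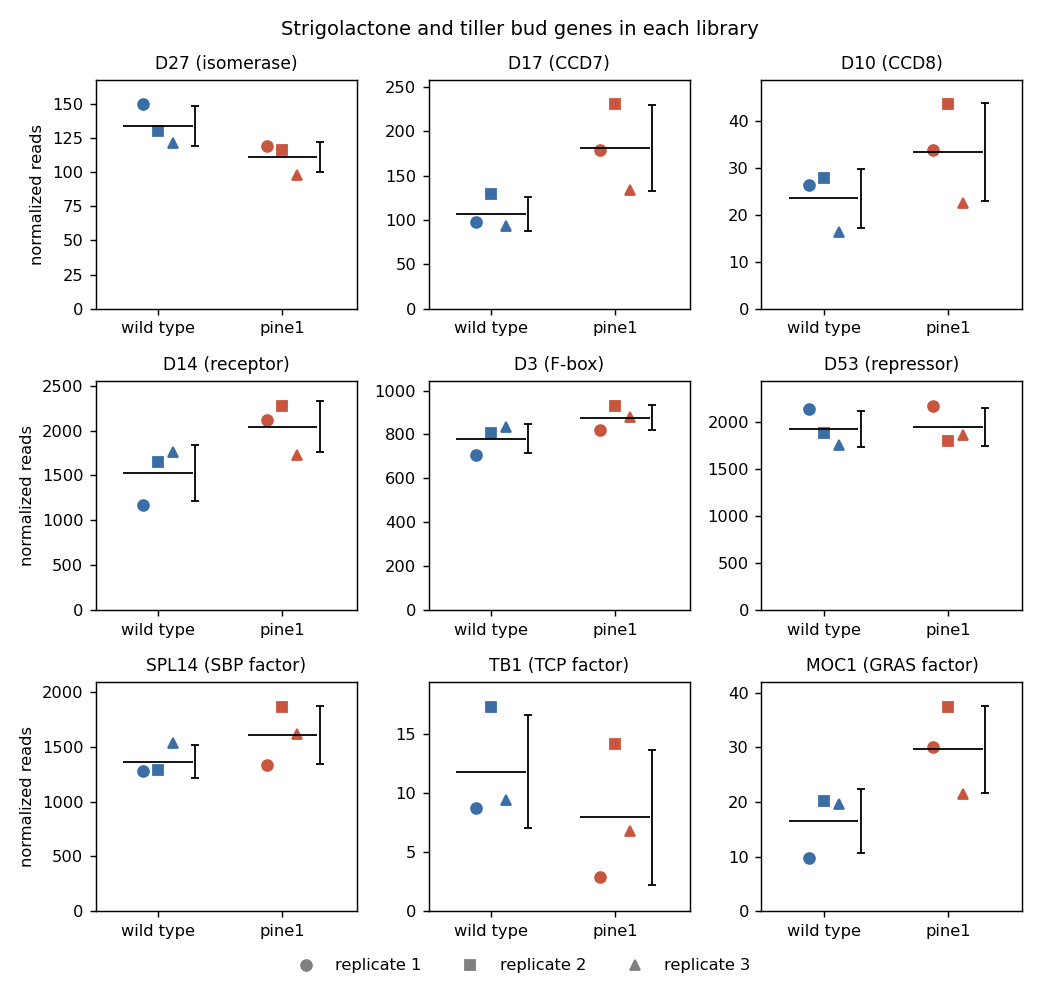
Normalized reads of the 9 genes in each library (y axis, from 0) by genotype (x axis); symbols mark the replicate, horizontal lines the mean and bars 1 SD (n = 3). The genotypes are apart for D27, D17 and MOC1 and overlap for the other 6, and pine1 replicate 2 is the highest pine1 library in 7 of the 9 genes.

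Of the synthesis genes, D27 had lower and D17 higher values in every pine1 library than in any wild type library. D27 (Os11g0587000, chromosome 11), the isomerase, had 150, 130 and 121 normalized reads in wild type libraries 1 to 3, against 119, 116 and 98.1 in pine1 libraries 1 to 3. The lowest wild type library and the highest pine1 library were close together. Means were 134 ± 14.5 and 111 ± 11.3 (SD, n = 3 each), and limma put the log2 fold change at -0.26 (SE 0.15, 95% interval -0.60 to 0.07) with an adjusted p of 0.36. Its unadjusted p, from the limma fit across all genes, was 0.11 and did not pass either.

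D17 (Os04g0550600, chromosome 4), also known as HTD1 and as CCD7, came nearest to a call. It had 98.3, 129 and 93.2 normalized reads in wild type libraries 1 to 3, against 179, 230 and 134 in pine1 libraries 1 to 3. All 3 pine1 libraries were above all 3 wild type libraries, with pine1 replicate 3 close to wild type replicate 2. Means were 107 ± 19.3 and 181 ± 48.1 (SD, n = 3 each). The log2 fold change was 0.74 (SE 0.21, 95% interval 0.26 to 1.22, or 1.20-fold to 2.33-fold), with a limma adjusted p of 0.079. The call depended on the tool. DESeq2 gave an adjusted p of 0.021 and a limma fit without pine1 replicate 3 gave 0.041, within a range of 0.018 to 0.22 over the 14 alternatives that could test it. The authors' deposited table lists D17 as HTD1 with a log2 fold change of -0.77 for wild type over pine1 (SE 0.23, adjusted p = 0.019).

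D10 (Os01g0746400, chromosome 1), known as CCD8, acts on the product of D17 and was read at far fewer counts. It had 26.2, 27.9 and 16.2 normalized reads in wild type libraries 1 to 3, against 33.8, 43.5 and 22.6 in pine1 libraries 1 to 3. The lowest pine1 library lay inside the wild type range. By limma the log2 fold change was 0.48 (SE 0.32, 95% interval -0.25 to 1.21) with an adjusted p of 0.45. Single libraries moved that estimate: dropping wild type replicate 3 gave 0.24, dropping pine1 replicate 2 gave 0.26, and dropping pine1 replicate 3 gave 0.72. Over all libraries 72 reads in wild type stood against 98 in pine1, and the depth-scaled read ratio was 1.46 with an exact 95% interval of 1.07 to 2.01 that covers counting error only. The SD between replicates was 1.30 times the counting SD in wild type and 1.81 times in pine1.

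The proportions of the 3 synthesis genes within a library are given as a description. Normalized reads of D17 divided by those of D27 were 0.657, 0.993 and 0.768 in wild type libraries 1 to 3, against 1.50, 1.98 and 1.37 in pine1 libraries 1 to 3. The mean ratio was 0.806 ± 0.171 for wild type and 1.62 ± 0.323 for pine1 (SD, n = 3 each). Since D17 was higher and D27 lower in every pine1 library, these ratios could not overlap. The outcome of a permutation test on them was thus fixed in advance, and none is used. D10 over D27 was 0.175 ± 0.041 for wild type and 0.296 ± 0.073 for pine1, and D17 over D10 was 4.70 ± 0.996 and 5.51 ± 0.379 (SD, n = 3 each). These 3 ratios were formed after the values were seen, are not scaled for gene length, and can be read between libraries only.

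Few of the later enzymes of the pathway were read. Of 6 further synthesis loci, 2 were tested and 0 passed by limma (beside 6.46% of all genes tested), by edgeR (6.49%) or by DESeq2 (8.18%). The other 4, MAX1-type loci, were not read in the table used here. Os1900 (Os02g0221900), the 1 MAX1-type oxidase tested, had 54.5 ± 1.38 and 58.4 ± 6.33 normalized reads in wild type and pine1 (SD, n = 3 each; log2 0.09, limma adjusted p = 0.82). The other, a CCD8-like gene (Os01g0566500), was the 1 of the 2 with an unadjusted p under 0.05, beside 20.9% of all genes tested. It had means of 212 ± 20.4 and 274 ± 26.8 (SD, n = 3 each; log2 0.37, limma adjusted p = 0.12).

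Carotenoid enzymes supply the substrate or compete for it. Of 11 tested 1 rose, 0 fell and 10 did not pass (median log2 fold change 0.18, beside 6.46% of all genes called). The 1 that rose was lycopene epsilon-cyclase (LCYE, Os01g0581300), which leads to lutein. It had 905, 927 and 901 normalized reads in wild type libraries 1 to 3, against 1066, 1093 and 1135 in pine1 libraries 1 to 3. The groups stood apart, with a log2 fold change of 0.27 (SE 0.06, limma adjusted p = 0.028). Leaving out any single library other than pine1 replicate 1 ended its call (limma adjusted p up to 0.099). Phytoene synthase PSY1 (Os06g0729000), at the entry of carotenoid synthesis, had means of 322 ± 26.6 and 400 ± 18.4 (SD, n = 3 each; limma adjusted p = 0.090). PSY2 (Os12g0626400), a phytoene synthase with more reads, had the opposite sign, at 520 ± 94.5 and 425 ± 42.6 (SD, n = 3 each; log2 -0.28, limma adjusted p = 0.29). For PSY3 (Os09g0555500) the groups overlapped (log2 0.39, limma adjusted p = 0.38). Of 5 regulators of synthesis linked to phosphate or to GRAS factors, 3 were tested and 0 passed by limma, by edgeR or by DESeq2, with 0 at an unadjusted p under 0.05. Over all genes tested these shares were 6.46%, 6.49%, 8.18% and 20.9%.

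Among the perception genes, D14 had the largest difference of means. D14 (Os03g0203200, chromosome 3), the receptor, had 1166, 1653 and 1758 normalized reads in wild type libraries 1 to 3, against 2120, 2279 and 1730 in pine1 libraries 1 to 3. Pine1 replicate 3 lay below wild type replicate 3, so the groups overlapped. Means were 1526 ± 316 and 2043 ± 282 (SD, n = 3 each), and limma put the log2 fold change at 0.43 (SE 0.15, 95% interval 0.09 to 0.78) with an adjusted p of 0.14. DESeq2 called it (adjusted p = 0.028), within a range of 0.028 to 0.32 over 15 alternatives. The fold change was 0.25 on the log2 scale without wild type replicate 1, the lowest library, and 0.55 without pine1 replicate 3. The authors' deposited table gives D14 a log2 fold change of -0.42 for wild type over pine1 (SE 0.13, adjusted p = 0.026).

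D3 (Os06g0154200, chromosome 6), the F-box protein that D14 recruits, had 704, 806 and 832 normalized reads in wild type libraries 1 to 3, against 822, 932 and 878 in pine1 libraries 1 to 3. Pine1 replicate 1 fell inside the wild type range. By limma the log2 fold change was 0.17 (SE 0.08, 95% interval -0.02 to 0.36) with an adjusted p of 0.29. Receptor over F-box protein within a library was 1.94 ± 0.248 for wild type and 2.33 ± 0.319 for pine1 (SD, n = 3 each) and overlapped.

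D53 (Os11g0104300, chromosome 11), the repressor, had nearly equal means in the 2 genotypes. Its normalized reads were 2132, 1883 and 1758 in wild type libraries 1 to 3, against 2173, 1793 and 1863 in pine1 libraries 1 to 3. Means were 1924 ± 190 and 1943 ± 202 (SD, n = 3 each), and limma put the log2 fold change at 0.01, with an adjusted p of 0.95 and a 95% interval from -0.19 to 0.22, which spans 0.876-fold to 1.16-fold. Its near-identical copy on chromosome 12, D53-like (Os12g0104300), had 1992 ± 151 and 2012 ± 252 (SD, n = 3 each; log2 0.01, limma adjusted p = 0.97). The sources used here do not say how reads that fit both copies were counted, so the split between them is uncertain. Their sum does not depend on that split, though reads dropped as ambiguous would be missing from it, and was 3917 ± 341 for wild type and 3955 ± 435 for pine1 (SD, n = 3 each).

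Of 7 further signalling genes 0 passed by limma (beside 6.46% of all genes tested), by edgeR (6.49%) or by DESeq2 (8.18%). At an unadjusted p under 0.05 there was 1, beside 20.9% of all genes tested. That one was SMAX1 (Os08g0250900), a relative of D53 that acts in the karrikin pathway, with 915 ± 38.8 and 1045 ± 67.1 normalized reads in wild type and pine1 (SD, n = 3 each; limma adjusted p = 0.16). D14L (Os03g0437600), the relative of D14 that serves as receptor there, had values that did not overlap, at 32.7 ± 3.80 and 24.7 ± 1.26 (SD, n = 3 each; log2 -0.39, limma adjusted p = 0.38). The list's median log2 fold change was 0.01.

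**Figure D2:**
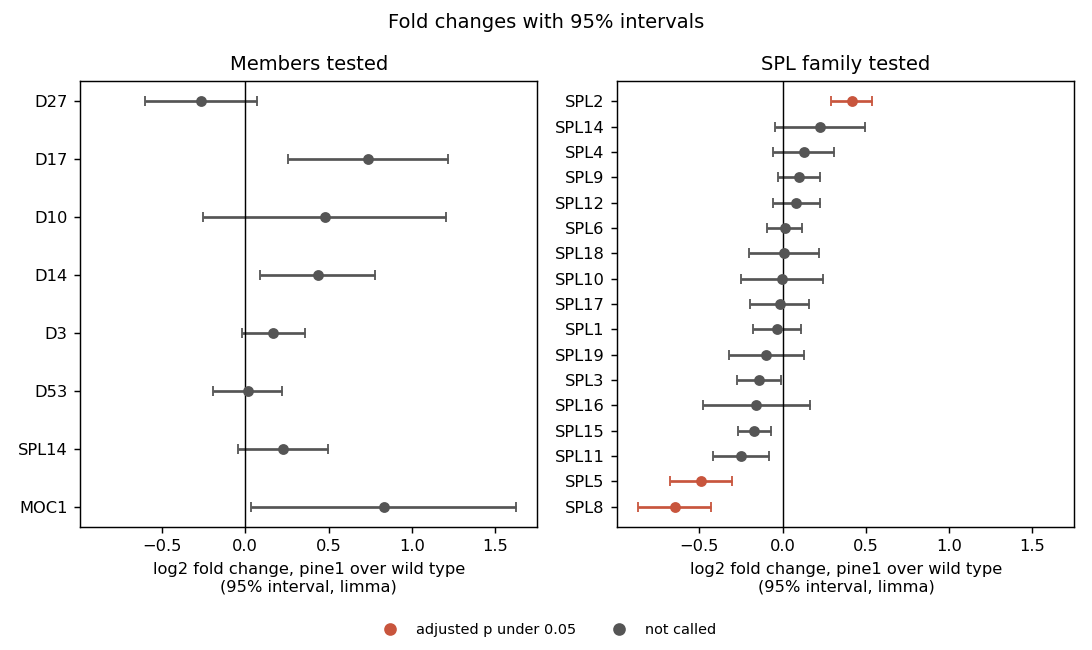
Log2 fold change of pine1 over wild type (x axis) with its 95% interval from limma for the 8 tested members (left) and the 17 tested SPL genes, SPL14 included (right); red marks an adjusted p under 0.05. Every member is grey, with D27 alone left of 0, and in the SPL family SPL2 is above 0 while SPL5 and SPL8 are below it.

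Bud regulators were read at very different depths. SPL14 (Os08g0509600, chromosome 8), known as IPA1 for its effect on plant architecture, is a transcription factor whose RNA is a target of the microRNA miR156. It had 1276, 1286 and 1536 normalized reads in wild type libraries 1 to 3, against 1337, 1865 and 1620 in pine1 libraries 1 to 3. Pine1 replicate 1 lay within the wild type range. Means were 1366 ± 148 and 1607 ± 264 (SD, n = 3 each), and limma put the log2 fold change at 0.23 (SE 0.12, 95% interval -0.04 to 0.50) with an adjusted p of 0.33. Without pine1 replicate 1 it was 0.35 (adjusted p = 0.086), and without pine1 replicate 2 it was 0.11. Adjusted p ran from 0.086 to 0.65 over 15 alternatives.

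MOC1 (Os06g0610350, chromosome 6), a GRAS protein without which rice forms hardly any tillers, had few reads but groups that stood apart. It had 9.83, 20.2 and 19.7 normalized reads in wild type libraries 1 to 3, against 30.0, 37.4 and 21.4 in pine1 libraries 1 to 3. The lowest pine1 library was just above the highest wild type library. By limma the log2 fold change was 0.83 (SE 0.35, 95% interval 0.03 to 1.63) with an adjusted p of 0.22 on the log2(normalized reads + 1) scale. It was 0.51 without wild type replicate 1, the lowest library, and 1.04 without pine1 replicate 3. In all, 53 reads in wild type stood against 87 in pine1, a depth-scaled ratio of 1.76 (exact 95% interval 1.24 to 2.53, counting error only). The SD between replicates was 1.43 times the counting SD in wild type and 1.47 times in pine1, so that interval is too narrow for the spread between pools.

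TB1 (Os03g0706500, chromosome 3), also called FC1, a TCP factor that represses bud outgrowth, was at the limit of detection. It had 8.74, 17.3 and 9.40 normalized reads in wild type libraries 1 to 3, against 2.90, 14.1 and 6.77 in pine1 libraries 1 to 3. The groups overlapped widely. Without the filter, limma put the log2 fold change at -0.67 (adjusted p = 0.54, 95% interval -1.86 to 0.52), and the depth-scaled read ratio was 0.667 (exact 95% interval 0.379 to 1.15, counting error only). Its SD between replicates was 1.39 times the counting SD in wild type and 2.03 times in pine1. No difference passed.

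Other genes of bud formation were called by limma in 0 of 4 cases, with 1 at an unadjusted p under 0.05, 0 by edgeR and 1 by DESeq2. The shares over all genes tested were 6.46% by limma, 20.9% at the unadjusted p, 6.49% by edgeR and 8.18% by DESeq2. The 1 gene in both counts is the locus of MOC2 (Os01g0866400), a fructose-1,6-bisphosphatase needed for tiller growth. It had 367, 374 and 273 normalized reads in wild type libraries 1 to 3, against 508, 460 and 432 in pine1 libraries 1 to 3. Its groups did not overlap (log2 0.48, SE 0.13, limma adjusted p = 0.071), and DESeq2 gave an adjusted p of 0.021. LAX1 (Os01g0831000), a bHLH regulator of axillary meristems, had 8.60 ± 0.984 and 4.63 ± 4.17 normalized reads (SD, n = 3 each) and fell under the filter.

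Genes known to act below D53, SPL14 or TB1 were 4 among those tested, with 0 called by limma or edgeR, 1 by DESeq2 and 2 at an unadjusted p under 0.05. Over all genes tested the shares were 6.46% by limma, 6.49% by edgeR, 8.18% by DESeq2 and 20.9% at the unadjusted p. DEP1 (Os09g0441900), a G protein subunit gene of panicle architecture and a target of SPL14, had 4820 ± 332 and 5962 ± 990 normalized reads (SD, n = 3 each; log2 0.30, limma adjusted p = 0.16). DESeq2 called it (adjusted p = 0.037), as did limma when pine1 replicate 1 was dropped (log2 0.42, adjusted p = 0.019). HOX12 (Os03g0198600), a homeobox gene, had 259 ± 49.0 and 362 ± 93.6 (SD, n = 3 each; limma adjusted p = 0.21). CKX9 (Os05g0374200), a cytokinin oxidase that responds to strigolactone in rice, had 37.2 ± 6.79 and 44.4 ± 4.34 (SD, n = 3 each; limma adjusted p = 0.56).

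Calls came instead in the wider SPL family, to which SPL14 belongs. Of 16 other SPL genes tested 1 rose, 2 fell and 13 did not pass, beside 6.46% of all genes, with a median log2 fold change of -0.02. DESeq2 called 4 of the 16, beside 8.18% of all genes tested. Its 1 further call was SPL15 (Os08g0513700), as lower, with 9121 ± 58.3 and 8115 ± 319 normalized reads (SD, n = 3 each; log2 -0.17, limma adjusted p = 0.056, DESeq2 adjusted p = 0.028). Limma called it too with upper-quartile scaling (adjusted p = 0.040) and without pine1 replicate 2 (0.048). SPL2 (Os01g0922600) had 936, 953 and 927 normalized reads in wild type libraries 1 to 3, against 1239, 1264 and 1254 in pine1 libraries 1 to 3. The libraries of each genotype lay close together, and the log2 fold change was 0.42 (SE 0.05, limma adjusted p = 0.0027).

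SPL8 (Os04g0656500), named OsLG1 in the authors' deposited table and required for the ligule and the joint of the leaf blade, had 489, 541 and 452 normalized reads in wild type libraries 1 to 3, against 333, 297 and 314 in pine1 libraries 1 to 3. It fell, with all pine1 libraries below all wild type libraries (log2 -0.65, SE 0.10, limma adjusted p = 0.0049). SPL5 (Os02g0177300) fell too, from 576 ± 35.2 to 410 ± 18.2 normalized reads (SD, n = 3 each; log2 -0.49, SE 0.08, limma adjusted p = 0.0088). These 3 calls held in all 15 alternatives, with adjusted p up to 0.042. SPL17 (Os09g0491532), the closest relative of SPL14, had 723 ± 28.5 and 716 ± 57.6 (SD, n = 3 each; log2 -0.02, 95% interval -0.19 to 0.16, limma adjusted p = 0.93). SPL14 over SPL17 within a library was 1.89 ± 0.219 and 2.24 ± 0.293 (SD, n = 3 each), and the groups overlapped.

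The order of libraries within a genotype recurred in several of the 9 genes. Pine1 replicate 2 was the highest pine1 library in 7 of the 9 (D17, D10, D14, D3, SPL14, TB1 and MOC1), beside 32.0% of all genes tested. Pine1 replicate 3 was the lowest in 5 (D27, D17, D10, D14 and MOC1), beside 35.2%. Among wild type libraries, replicate 1 was the lowest in 5 (D14, D3, SPL14, TB1 and MOC1), beside 34.6%. These 9 genes share their libraries and are not independent. Several genes had the same replicate number highest, or the same lowest, in both genotypes. D17, D10, TB1 and MOC1 were highest in replicate 2 of both, and D53 and D27 in replicate 1 of both. D27, D17 and D10 were lowest in replicate 3 of both, and D3, TB1 and SPL14 in replicate 1 of both. The share of all genes with such a match was not computed. Over all genes tested, same-numbered libraries deviated together by correlations of 0.06, 0.02 and 0.13 only.

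By a fixed rule the 2 named genes whose profile was most like that of D17 over the 6 libraries were sought among 667 genes with a symbol in the authors' deposited table. OsLEA24 (Os03g0655400) was first, with a root mean square difference of 0.11 between gene-centred log2 profiles, and had 862, 969 and 794 normalized reads in wild type libraries 1 to 3, against 1266, 1696 and 1078 in pine1 libraries 1 to 3. A chalcone synthase gene (Os11g0530600), of flavonoid synthesis, came next at 0.13. That table holds genes that the authors called on these libraries, so likeness by genotype is partly built in.

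Some markers of other tissues were also called between the genotypes. Strigolactone synthesis is known to be strong in roots, and of 6 root markers tested 1 rose and none fell, while 5 missed the threshold (beside 6.46% of all genes called). NRT2.3 (Os01g0704100), a nitrate transporter, rose from 6.50 ± 1.27 to 20.8 ± 5.26 normalized reads (SD, n = 3 each; log2 1.52, limma adjusted p = 0.032), a call lost with DESeq2 (0.074) and without any library but pine1 replicate 3 (up to 0.11). The silicon transporter gene LSI1 (Os02g0745100) had 43.5 ± 4.57 and 71.1 ± 8.90 normalized reads (SD, n = 3 each; limma adjusted p = 0.070) and was highest in pine1 replicate 2. LSI2 (Os03g0107300) was at 0 in wild type replicates 1 and 3, at 23.1 in wild type replicate 2 and at 18.4, 72.8 and 42.9 in pine1 replicates 1 to 3.

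RCc3 (Os02g0662000), the root marker with the most reads, had the opposite sign without passing, at 446 ± 125 normalized reads for wild type and 218 ± 113 for pine1 (SD, n = 3 each; limma adjusted p = 0.13). The summed level of the 7 root markers read was 510 to 723 normalized reads in wild type and 274 to 515 in pine1 and overlapped. RCc3 alone gave 355, 395 and 589 of it in wild type libraries 1 to 3. In pine1 libraries 1 to 3 it gave 88.9, 268 and 297, so the sum largely follows that 1 gene. Of the 6 root markers tested, 4 had log2 fold changes above 0, against the direction of the sum. NAR2.1 (Os02g0595900) was at 0 in pine1 replicate 1. Library order differed between root markers: WOX11 (Os07g0684900) was highest in wild type replicate 1 and lowest in pine1 replicate 2, while CRL1 (Os03g0149100) was highest in pine1 replicate 3. The part of root tissue in the values of D27, D17 and D10 was not tested.

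Of 5 KNOX genes that mark the meristem 3 rose, 0 fell and 2 did not pass, beside 4.02% of all genes higher. Their summed level was 2036 to 2640 normalized reads in wild type and 3599 to 4476 in pine1. OSH1 (Os03g0727000), which MOC1 is known to promote in axillary buds, had 281, 441 and 421 normalized reads in wild type libraries 1 to 3, against 998, 1033 and 761 in pine1 libraries 1 to 3 (log2 1.30, limma adjusted p = 0.0032). OSH15 (Os07g0129700) rose from 763 ± 113 to 1610 ± 236 (SD, n = 3 each; log2 1.08, limma adjusted p = 0.0014). The authors' deposited table also links OSH15 to internode development, and the segment held stem, so its RNA need not come from the meristem alone. OSH6 (Os01g0302500) rose from 222 ± 50.9 to 374 ± 28.3 (SD, n = 3 each; log2 0.78, limma adjusted p = 0.024) and missed the threshold when wild type replicate 3 or any 1 of the pine1 libraries was dropped (limma adjusted p up to 0.081). OSH43 (Os03g0771500) had the opposite sign without passing, at 83.4 ± 20.3 and 55.2 ± 15.3 (SD, n = 3 each; log2 -0.59, limma adjusted p = 0.23), and OSH71 (Os05g0129700) had nearly equal means of 987 ± 133 and 974 ± 127 (SD, n = 3 each). The lowest library was wild type replicate 1 and the highest pine1 replicate 2 in OSH1, OSH15 and OSH6, as in MOC1, D14, D3 and SPL14. OSH43 was instead highest in wild type replicate 1 and OSH71 in wild type replicate 2, and both were lowest in pine1 replicate 1. The share of all genes with these extremes was not computed. Of 4 leaf markers 2 rose, 0 fell and 2 did not pass (again beside 4.02% higher), with summed levels of 43947 to 52125 and 56246 to 64271. CAB2R (Os01g0600900), of the light-harvesting complex, rose from 22394 ± 1466 to 31953 ± 3193 normalized reads (SD, n = 3 each; log2 0.51, limma adjusted p = 0.0045). CAB1R (Os09g0346500), which with CAB2R makes up nearly all of the sum, overlapped at 25389 ± 3136 and 26777 ± 1336 (SD, n = 3 each; log2 0.08, limma adjusted p = 0.64). RBCS2 (Os12g0274700) did not pass either (log2 0.27, limma adjusted p = 0.39). RBCS3 (Os12g0291100), a Rubisco small subunit gene, rose from 331 ± 11.2 to 443 ± 51.3 (SD, n = 3 each; log2 0.41, limma adjusted p = 0.049). RBCS3 was no longer called, which left 1 leaf marker, with a mean of at least 5 CPM, with upper-quartile scaling, or when any single library other than pine1 replicate 1 was dropped. The part of meristem or leaf tissue in the values of MOC1, D14 and SPL14 was not tested.

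**Figure D3:**
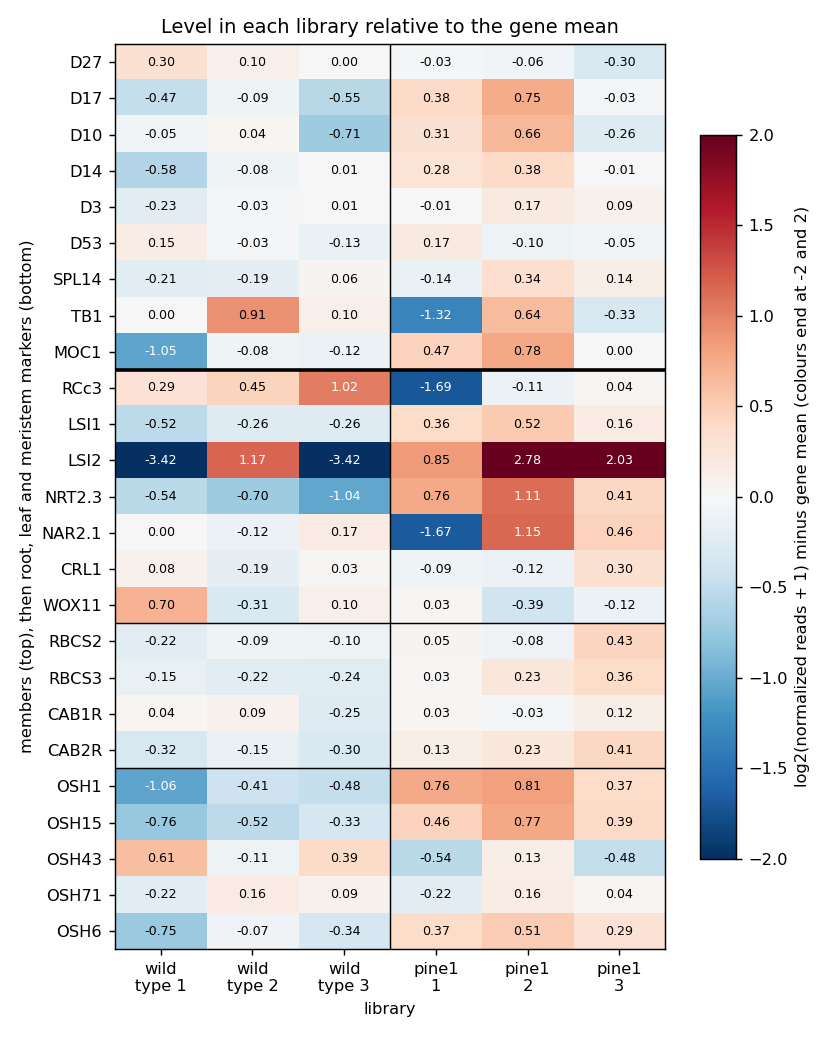
Log2(normalized reads + 1) minus the gene's mean over the 6 libraries (colour and printed value) for the 9 genes and for every root, leaf and meristem marker read (rows), by library (columns). D17, D10, D14, D3, SPL14 and MOC1 peak in pine1 replicate 2, as do LSI1, LSI2, NRT2.3, NAR2.1, OSH1, OSH15 and OSH6. The leaf markers and CRL1 peak in pine1 replicate 3, while RCc3 is lowest in pine1 replicate 1 and WOX11 in pine1 replicate 2.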

How the data were processed

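Per the labels' protocols, mRNA was enriched with oligo(dT) beads and copied with random hexamers; the sources used here do not say whether strand was kept. The build was IRGSP-1.0 and the tools included STAR, HTSeq and DESeq2, per the submitters' processing notes. The deposited sheet stacks 2 tables: a signal per gene and library, headed as normalized reads, in which the authors divided the counts of each library by its size factor, and their own comparison of 1962 genes. All values (100%) were whole multiples of 1 step per library within 0.001 reads, so whole reads were recovered. Every gene listed has at least 10 reads in all.

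Because deposited values are normalized, log2(normalized reads + 1) was fitted with limma (3.58.1, intensity trend, Benjamini-Hochberg over 24149 genes kept by filterByExpr with a minimum count of 10), and a gene was called at an adjusted p under 0.05. Folds of genes with few reads depend on the added 1. R 4.3.3 with edgeR 4.0.16 and DESeq2 1.42.0, and Python 3.11.15 with scipy 1.17.1, pandas 2.3.3 and matplotlib 3.10.9 served for the rest. The limma and edgeR fits, but not DESeq2, were tried on simulated data. Changed genes there had more reads than D10, MOC1 or TB1 and larger changes than the main fit gave any tested member. Alternatives were other pseudocounts, filters, scalings, tools, a replicate block and each library left out. The members and lists were chosen with earlier results of these data known. The 77 loci of 10 further lists were written from memory, 66 were read, and 14 of all 86 loci stand in the authors' deposited table, under names that fit. Named were all members, called list genes (at most 3 per direction), D53-like, D14L and the 2 profiles nearest to the member with the lowest adjusted p; other genes were named after their values were seen. No sequence or genome coordinate is used here.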

Additional observations from a re-analysis of the deposited data

How the results depend on the processing

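The count of members called higher, 0, became 2 with DESeq2 on recovered reads (D17 and D14), 1 with the replicate block (D17, log2 0.74, adjusted p = 0.018) and between 0 and 1 with 1 library left out, where the 1 was D17 without pine1 replicate 3 (0.94, adjusted p = 0.041). The count called lower was 0 in all 15 alternatives. Of 116 member values under these settings, 110 kept their direction and their side of the threshold. The 2 that turned direction were those of D53, at -0.049 when wild type replicate 3 was left out and -0.070 when pine1 replicate 1 was, within a range of -0.070 to 0.090. Same-numbered libraries of the genotypes deviated together by correlations of 0.06, 0.02 and 0.13 only, so the numbers were not taken as pairs; with the block 1195 genes were higher and 799 lower, and of the root markers 2 were called higher (NRT2.3 and LSI2) and 1 lower (RCc3, adjusted p = 0.019), against 1 and 0 without it. The block also called the MOC2 locus (adjusted p = 0.023) and lost RBCS3 (0.051). Over all genes, 970 were higher and 589 lower; a mean of at least 5 CPM gave 573 higher, and leaving out 1 library gave 563 to 757 higher and 261 to 544 lower, with 563 higher and 261 lower without wild type replicate 1, 270 lower without wild type replicate 2 and 640 higher and 384 lower without wild type replicate 3. The cause of these shifts was not tested. The 5 CPM filter left out D27, D17, D10 and MOC1. Counting error is largest in TB1, MOC1 and D10, with under 100 reads per genotype.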
